A study of Mus musculus with 12 samples.

Results

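The genes of the collagen and laminin chains were read across 12 RNA-seq libraries of the mouse lateral habenula, a small epithalamic nucleus that passes aversive signals to midbrain monoamine neurons. They were chosen by symbol alone, as every collagen alpha chain and every laminin alpha, beta or gamma chain of the GENCODE M21 annotation with a row in the expression table. That gave 50 of 17416 genes, 39 collagens and 11 laminins, and 5 further genes of the annotation that fit the rule (Col10a1, Col14a1, Col17a1, Col4a6 and Col6a5) had no row. By class they were 11 fibrillar chains, 16 basement membrane chains (5 of type IV collagen and 11 laminins) and 23 others. The others were 8 fibril-associated, 5 microfibrillar type VI, 3 transmembrane, 2 network-forming type VIII, 2 multiplexin and 3 remaining chains.

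All mice were C57BL/6 and 9 weeks old. The groups were 4 libraries of socially defeated mice labelled stress-susceptible, 4 of defeated mice labelled stress-resilient, and 4 of non-defeated mice. Tissue was punched from 500 µm slices, and 100 pg of RNA entered a low-input full-length cDNA protocol. Whether every library came from its own animal is not spelled out in the labels, so the p-values measure only the spread between these libraries, which may be technical. The series is titled for remodeling of the extracellular matrix in the habenula, and no further purpose is given for these genes.

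Collagens are trimers of chains that wind around each other, and the winding needs a glycine to open each triplet of residues. Fibrillar collagens form the cables of connective tissue, type IV collagen and laminin form the separate but linked sheets of basement membranes, and fibril-associated collagens decorate fibrils. In adult brain, basement membranes surround blood vessels and line the pia, fibrillar collagen lies mainly in the meninges and around large vessels, and some transmembrane collagens are made by neurons. Laminins are crosses of an alpha, a beta and a gamma chain that bind integrins and dystroglycan.

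The coding sequences show how the classes differ. In chains translated from the GENCODE M21 transcripts, the longest unbroken run of glycine triplets was 216 to 344 triplets in the 11 fibrillar chains (median 338). It was 39 to 66 triplets in the 5 type IV chains, which instead held 23 to 27 separate runs. The type IX chains Col9a1, Col9a2 and Col9a3 shared a longest run of 113 triplets, and no laminin had a run longer than 3. Stretches of 72 coding bases, with glycine codons in capitals, are shown because these chains recur below. The Col2a1 stretch is codons 201 to 224, on the minus strand of chromosome 15. That of Col3a1 is codons 164 to 187 (chromosome 1, plus strand), that of Col9a2 codons 180 to 203 (chromosome 4, plus strand), and that of Col4a1 codons 151 to 174 (chromosome 8, minus strand).
Col2a1: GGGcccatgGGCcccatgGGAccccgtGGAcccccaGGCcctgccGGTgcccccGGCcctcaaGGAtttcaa
Col3a1: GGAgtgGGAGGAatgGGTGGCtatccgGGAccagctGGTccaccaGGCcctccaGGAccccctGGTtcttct
Col9a2: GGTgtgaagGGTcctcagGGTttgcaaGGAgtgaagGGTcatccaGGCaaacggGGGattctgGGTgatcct
Col4a1: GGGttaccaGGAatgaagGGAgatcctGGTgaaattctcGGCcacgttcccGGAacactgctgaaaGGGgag
In Col2a1, Col3a1 and Col9a2 a glycine codon opens every triplet. In Col4a1 the spacing breaks inside the stretch, as it does between the many runs of the type IV chains.

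The type IV genes Col4a1 and Col4a2 are shown at their starts because they face away from each other across a shared region, and because their levels are compared below. Col4a1 lies at chr8:11198423-11312826 on the minus strand and Col4a2 at chr8:11312805-11449287 on the plus strand, so that they overlap by 22 bases at their 5′ ends (GENCODE M21, GRCm38). The RefSeq promoter windows, 250 bases before and 50 after each start (GRCm38.p6), share 78 bases, in capitals, as reverse complements. They are chr8:11312777-11313076 (minus strand) for Col4a1 and chr8:11312555-11312854 (plus strand) for Col4a2.
Col4a1: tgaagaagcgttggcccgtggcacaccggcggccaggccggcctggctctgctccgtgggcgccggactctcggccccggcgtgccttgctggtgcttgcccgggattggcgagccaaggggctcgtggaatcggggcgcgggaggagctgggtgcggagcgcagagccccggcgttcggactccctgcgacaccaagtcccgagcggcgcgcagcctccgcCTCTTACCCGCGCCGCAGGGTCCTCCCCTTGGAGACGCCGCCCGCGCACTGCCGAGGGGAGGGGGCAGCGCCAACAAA
Col4a2: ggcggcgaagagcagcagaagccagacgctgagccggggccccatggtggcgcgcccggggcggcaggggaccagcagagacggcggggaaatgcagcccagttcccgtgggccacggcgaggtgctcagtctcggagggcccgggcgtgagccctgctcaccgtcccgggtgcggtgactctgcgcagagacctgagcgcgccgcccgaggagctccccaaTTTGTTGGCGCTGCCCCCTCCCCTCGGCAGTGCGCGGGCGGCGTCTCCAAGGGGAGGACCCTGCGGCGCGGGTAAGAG
Of 3 short motifs searched on both strands, the GC box GGGCGG was in 24 of 40 promoter windows of 36 of the genes, against 35.7% of all 32851 windows. The CCAAT box was in 32.5% against 37.4%, and the TATA box TATAAA in 7.5% against 13.6%. These are letter matches and no sites of binding.

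Depth was 33.3 M to 47.7 M reads per library (M, 1000000 reads), so that 1 read stood for 0.0209 to 0.0300 CPM (reads per 1000000 reads) and a level of 1 CPM for at least 33 reads. Levels are CPM scaled by trimmed means of M values (TMM). A fold change is a difference of log2(CPM + 1), and for scarce genes the added 1 makes it too small. All 6 lateral habenula markers, such as Slc17a6 (354.8 to 478.4 CPM), had reads in every library. The letter H or N in the library titles was N in every resilient, H in every non-defeated, and H in 2 and N in 2 susceptible libraries, so it cannot be told apart from the resilient against non-defeated comparison. In bulk tissue, fewer cells of a type and less RNA per cell cannot be told apart.

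These genes were scarce in the habenula. Together they gave 263.2 ± 29.5 CPM in susceptible, 335.0 ± 353.9 in resilient and 279.5 ± 109.6 in non-defeated libraries (SD, n = 4 each). Between 33 and 49 of the 50 genes had a read in a given library. Per kb of exon in non-defeated libraries, the highest were Col9a2 (7.38 ± 1.20 CPM per kb) and Col9a3 (7.35 ± 1.68), chains of the fibril-associated type IX collagen, which did not differ beyond their spread. Then came Col16a1, another fibril-associated chain (3.83 ± 5.12 CPM per kb), and Col25a1, a transmembrane collagen made by neurons (3.05 ± 1.03), whose order is within their spread. The laminin chain Lamb2 (2.10 ± 1.12), the type IV chains Col4a2 (2.03 ± 2.02) and Col4a1 (1.72 ± 0.62), Col11a2 (1.53 ± 1.59), Col8a2 (1.5 ± 1.4) and Col18a1 (1.47 ± 0.49) followed, all with overlapping spreads (SD, n = 4, CPM per kb).

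**Figure D1:**
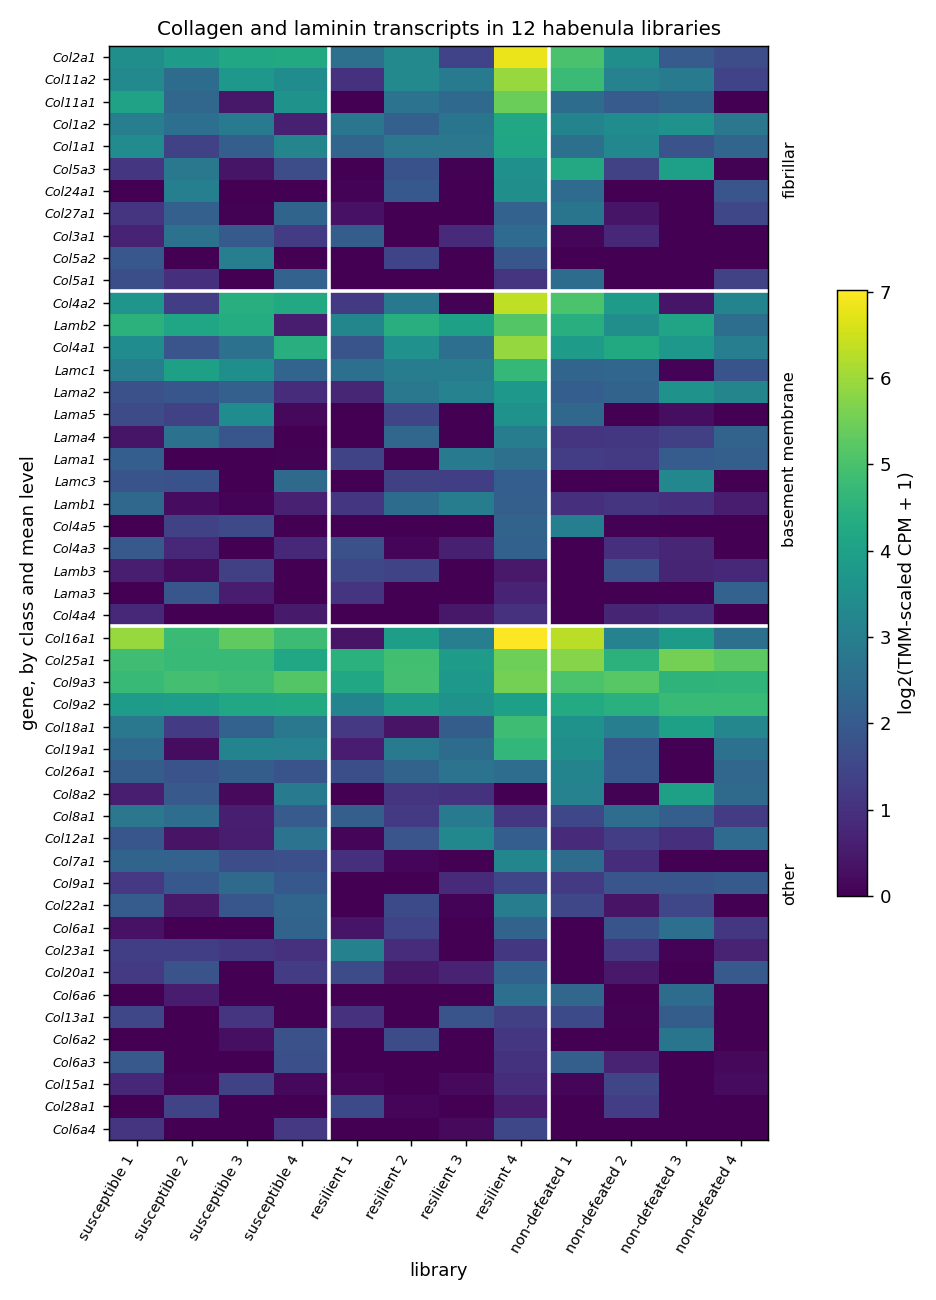
Level of 49 of the 50 genes (rows, grouped by class and ordered by mean level) in each of the 12 libraries (columns), coloured by log2 of TMM-scaled CPM + 1. Resilient replicate 4 holds the highest value of 24 genes, among them Col2a1 at 110.8 CPM and Col16a1 at 129.1 CPM.

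Resilient replicate 4 stood apart from all other libraries. It had the highest level of 24 of the 50 genes (48.0%), against 16.6% of all genes and 18.6% of the 8454 genes that averaged 1 to 30 CPM. Its summed level was 862.5 CPM, against 114.2 to 210.9 CPM in the other 3 resilient libraries, and 225.7 to 297.8 in susceptible and 192.0 to 436.1 in non-defeated libraries. Its excess over the median of the other 11 libraries, as a difference of log2 levels, had a median of 1.44 over the 50 genes and 0.05 over all genes. By class the median excess was 1.89 for the fibrillar chains, all 11 of them above 1, then 1.36 for the basement membrane chains and 0.81 for the others.

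Cartilage-type fibrillar chains and type IV chains were among those with the excess. Col2a1, the type II collagen chain, stood at 110.8 CPM in resilient replicate 4 and at 1.66 to 31.0 CPM in the other 11 libraries. The type XI chains Col11a1 and Col11a2 stood at 42.4 and 60.6 CPM there, against at most 15.6 and 26.5 CPM elsewhere. Col4a1 and Col4a2 stood at 59.2 and 80.6 CPM there, against at most 20.2 and 31.7 CPM elsewhere. Col8a2 at 0, Col8a1 at 1.20 and Col9a2 at 14.5 CPM were not raised there, while Col9a3 was highest there, at 45.7 CPM against at most 35.6 CPM elsewhere.

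Vascular markers moved with it. Endothelial markers summed to 391.1 CPM in resilient replicate 4 and to 38.3 to 102.4 CPM in the other 11 libraries, with all 10 highest there. The 8 pericyte markers, all highest there as well, summed to 252.0 CPM against 52.7 to 70.1 CPM. Vascular smooth muscle markers summed to 53.0 CPM against 1.29 to 13.9 CPM, with 3 of 5 highest there; Myh11 had 14.9 CPM there and no read in 7 libraries. Leptomeningeal fibroblast markers (65.4 CPM, others 22.8 to 87.7, 1 of 11 highest there) and choroid plexus markers (75.1 CPM, others 29.6 to 225.7, 2 of 8 highest there) lay within the range of the other libraries. Ependymal markers summed to 11.3 CPM there (others 5.79 to 28.8) and medial habenula markers to 240.5 CPM (others 83.1 to 398.0). Lateral habenula markers had their lowest sum there, 1169 CPM against 1443 to 2215 CPM. Of that list only Gap43 was itself lowest there, at 422.8 CPM against 755.8 to 1578 CPM elsewhere. Slc17a6 had 390.6 CPM there, inside its range elsewhere (354.8 to 478.4 CPM). The part of these cell types in the collagen and laminin levels was not tested. Resilient replicate 4 also had the fewest reads (33302292), reads in 98.1% of all genes, against 89.1 to 95.1% in the other 11 libraries, and the largest TMM factor, 1.097 against 0.9497 to 1.022. Values below that it turned or moved by over 1.5 times are also given without it.

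Non-defeated replicate 1 had the next highest sum (436.1 CPM) and the highest level of 7 of the 50 genes. It had high Col2a1 (31.0 CPM), Col11a2 (26.5), Col16a1 (77.4) and Col4a2 (31.7), and its endothelial sum (68.8 CPM) lay inside the range of the other libraries. Its pericyte sum (70.13 CPM) was the highest after resilient replicate 4, but only just above that of susceptible replicate 1 (69.75 CPM).

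**Figure D2:**
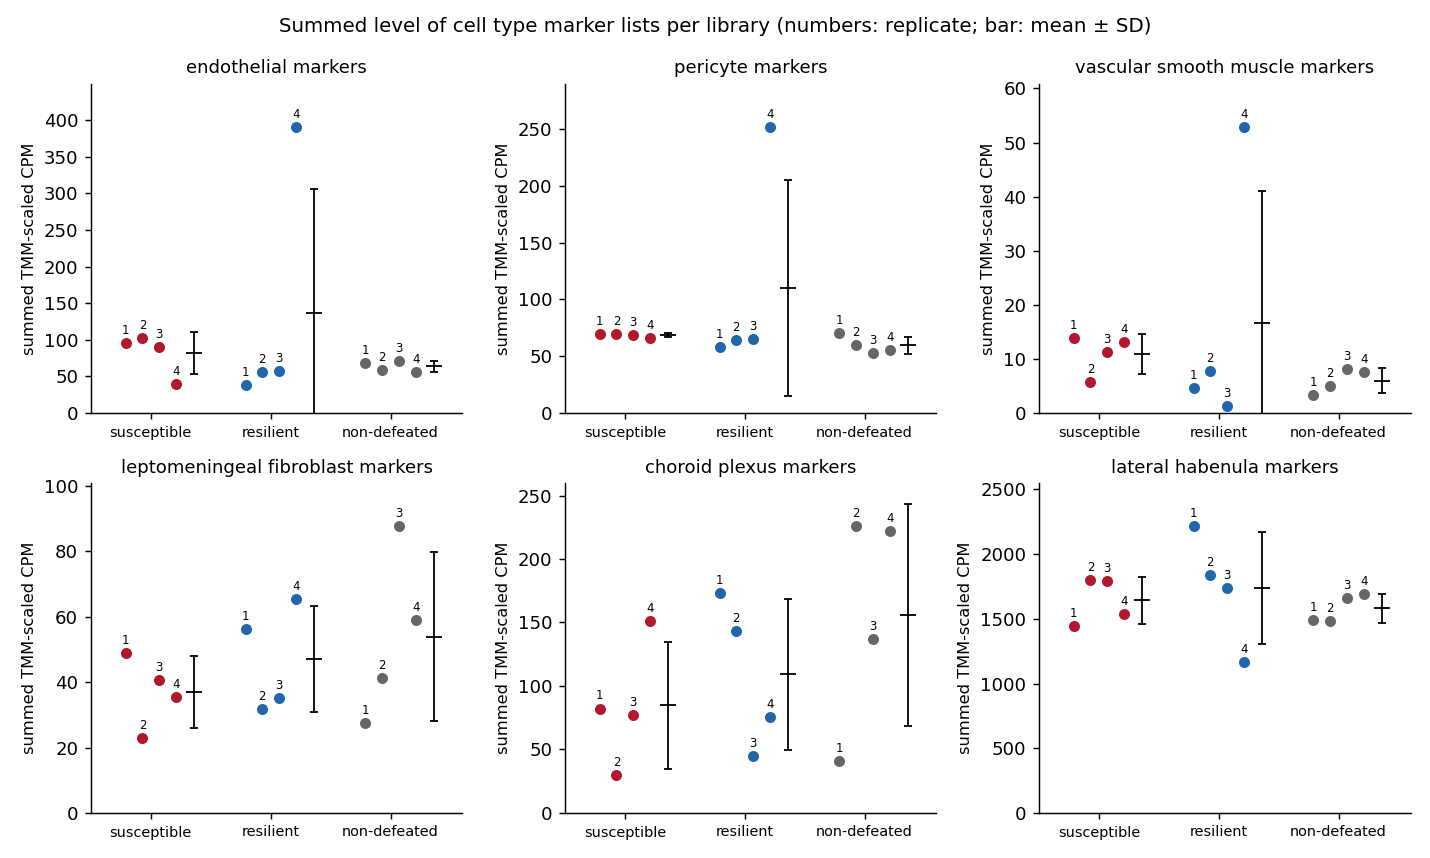
Summed TMM-scaled CPM (vertical axes, linear, from 0) of 6 marker lists in susceptible, resilient and non-defeated libraries. Points are libraries numbered by replicate, and bars are mean ± SD, n = 4, cut at the axis where they would pass 0; resilient replicate 4 lies at 391.1 CPM for endothelial and 252.0 CPM for pericyte markers, above every other library.

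The class sums spread less among susceptible than among resilient libraries, and without resilient replicate 4 the spreads were closer. This holds for sums: single genes such as Col4a2 spread widely among susceptible libraries (1.40 to 20.7 CPM), while Col9a2 did not (13.6 to 18.4 CPM). The fibrillar chains summed to 50.2 to 59.2 CPM in susceptible libraries, to 19.3, 39.3, 24.6 and 280.6 CPM in resilient replicates 1 to 4, and to 19.6 to 107.7 CPM in non-defeated libraries. The susceptible mean was 54.8 ± 4.79 CPM (SD, n = 4), against 27.7 ± 10.4 CPM in the resilient libraries without replicate 4 (SD, n = 3). These values do not overlap only because replicate 4, which lay above every susceptible library, is left out. Non-defeated libraries overlapped both. The basement membrane chains summed to 64.1 ± 11.03 CPM in susceptible, 97.5 ± 103.4 in resilient (46.4 ± 18.8 without replicate 4, n = 3) and 65.3 ± 19.3 in non-defeated libraries. The other chains summed to 144.2 ± 19.6 CPM in susceptible, 146.5 ± 124.2 in resilient (85.0 ± 20.6 without replicate 4, n = 3) and 161.4 ± 54.5 in non-defeated libraries. These sums are descriptions without a test.

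**Figure D3:**
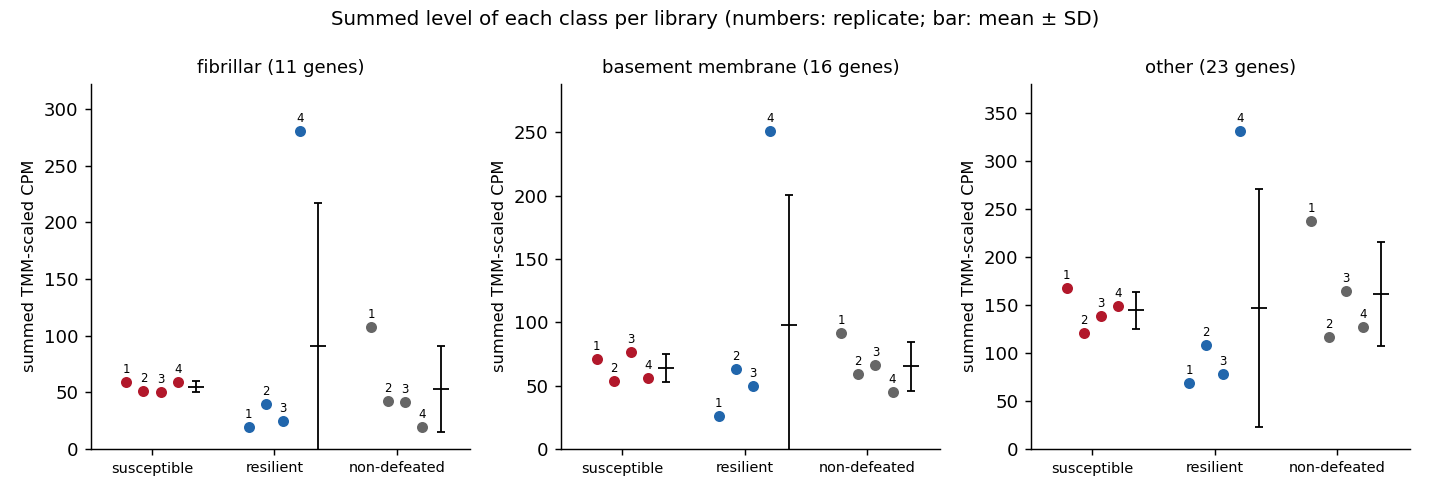
Summed TMM-scaled CPM (vertical axes, linear, from 0) of the fibrillar, basement membrane and other chains in susceptible, resilient and non-defeated libraries. Points are libraries numbered by replicate, and bars are mean ± SD, n = 4, cut at the axis where they would pass 0; the 4 susceptible fibrillar sums lie between 50.2 and 59.2 CPM, and resilient replicate 4 lies at 280.6 CPM.

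In susceptible against non-defeated mice, laminin gamma 1 (Lamc1) and type III collagen (Col3a1) were higher and type IX collagen (Col9a2) was lower, but none of these differences passed the test over all genes. Of the 50 genes, 49 passed the filter on low counts (Col6a4 did not) and 0 were called by limma-trend at an adjusted p under 0.05, where 0% of the 17111 genes tested were called. At an unadjusted p under 0.05 there were 2 of 48, both higher (Col3a1 and Lamc1), where 3.54% of all genes were. No gene was higher without overlap (1.11% of all genes were), and Col18a1 and Col9a2 were lower without overlap (1.11% of all genes). The edgeR quasi-likelihood test, DESeq2 and limma voom also called 0 of 49, where they called 0%, 0.134% and 0% of all genes.

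In resilient against non-defeated mice, Lamc1 and laminin beta 1 (Lamb1) were higher, while the type IX chains Col9a1 and Col9a2, and Col8a2 were lower. By limma-trend, none of these differences passed over all genes. Again 0 of 49 were called by limma-trend (0.00584% of all genes, a single gene), the edgeR quasi-likelihood test (0%) or voom (0.0468%). DESeq2 called 1 of 49, Col9a2, where it called 0.532% of all genes, 91 of 17111. At an unadjusted p under 0.05 there were 5 of 48, those just named, where 7.14% of all genes were. Without overlap, Lamb1 and Lamc1 were higher (1.98% of all genes) and Col9a2 lower (1.68% of all genes).

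In susceptible against resilient mice, Col9a1 was higher and Lamb1 lower on average, but neither difference passed the test over all genes. Limma-trend called 0 of 49, where it called 0.0468% of all genes. EdgeR, DESeq2 and voom also called 0 of 49, where they called 0%, 0.222% and 0.0935% of all genes. These 2 of 48 genes had an unadjusted p under 0.05, where 3.51% of all genes did. The groups overlapped in all 49 genes, where 1.42% of all genes were higher and 1.03% lower without overlap. The comparisons share libraries, so their values are not independent of each other.

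The class medians of the log2 fold changes moved with single libraries. In susceptible against non-defeated mice they were 0.23 for 11 fibrillar, -0.07 for 16 basement membrane and 0.08 for 22 other chains, beside 0.01 for all genes, and 27 of 49 genes were positive, where 52.15% of all genes were. The fibrillar median was -0.06 without susceptible replicate 4 or without non-defeated replicate 3, and 0.78 without non-defeated replicate 1. In resilient against non-defeated mice they were 0.30, -0.001 and -0.07, beside 0.02 for all genes. Of the 49 genes 25 were positive, where 52.81% of all genes were. Without resilient replicate 4 the fibrillar median turned to -0.61 and the others were -0.21 and -0.42, beside 0.01 for all genes. Then 16 of 49 were positive, where 50.8% of all genes were. In susceptible against resilient mice the medians were 0.16, -0.09 and 0.045 with that library and 0.85, 0.31 and 0.23 without it. For all genes they were -0.015 and -0.001. With that library 23 of 49 genes were positive and without it 35 of 49, where 47.92% and 49.82% of all genes were.

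**Figure D4:**
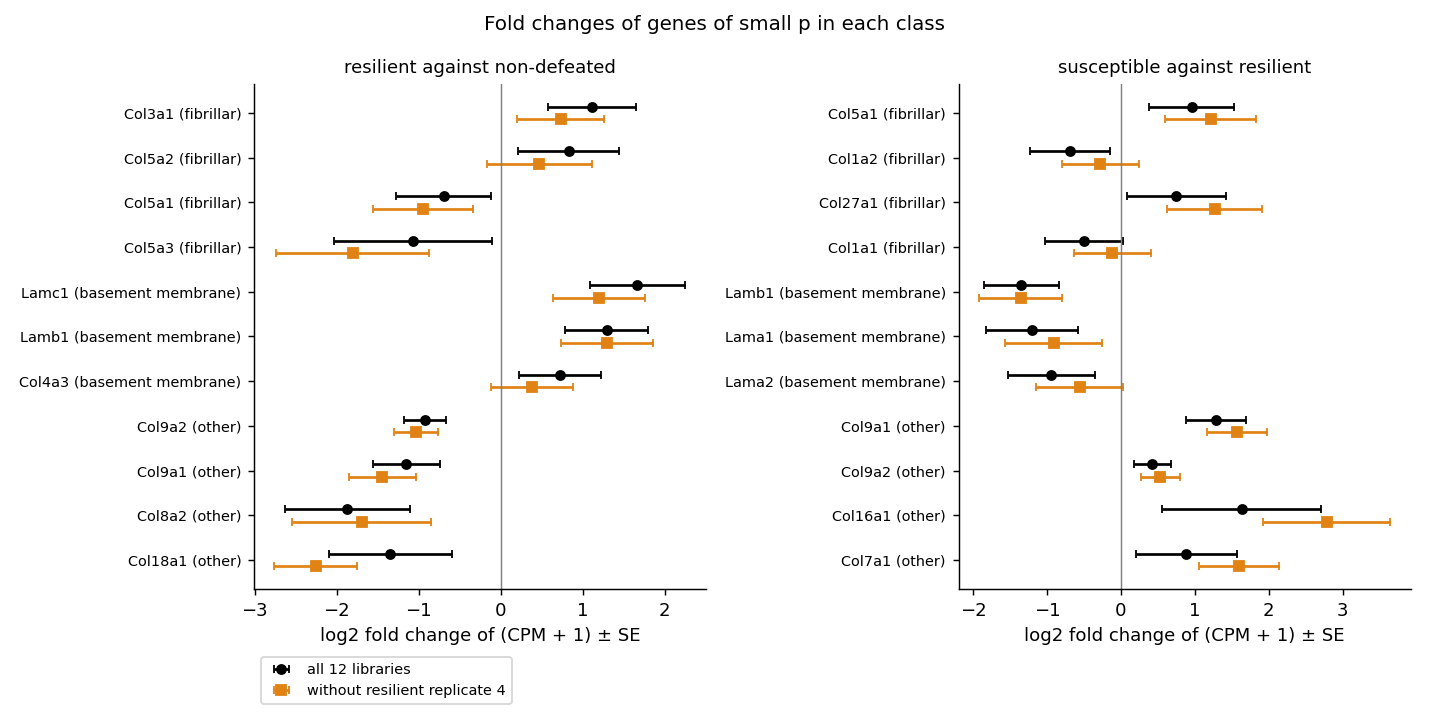
Log2 fold changes of (CPM + 1) ± SE from limma-trend for genes of small p in each class, in resilient against non-defeated (left) and susceptible against resilient mice (right). Circles use all 12 libraries and squares leave out resilient replicate 4; 0 genes pass an adjusted p of 0.05, and no gene shown changes sign. Col5a2 has no read in non-defeated libraries, so its fitted value is not a bound.

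Among the laminins, the gamma 1 chain is a part of most laminin trimers. Lamc1 stood at 7.07, 15.0, 10.2 and 3.93 CPM in susceptible replicates 1 to 4, at 4.92, 6.87, 6.76 and 24.5 CPM in resilient replicates 1 to 4, and at 3.87, 4.003, 0.041 and 2.56 CPM in non-defeated replicates 1 to 4. Each resilient library was above each non-defeated one, and susceptible replicate 4 lay just below the highest non-defeated library. Its log2 fold change was 1.58 ± 0.58 (SE, limma adjusted p = 0.998) in susceptible and 1.67 ± 0.58 (adjusted p = 0.567) in resilient against non-defeated mice. Without resilient replicate 4, resilient against non-defeated mice gave 1.20 ± 0.56.

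**Figure D5:**
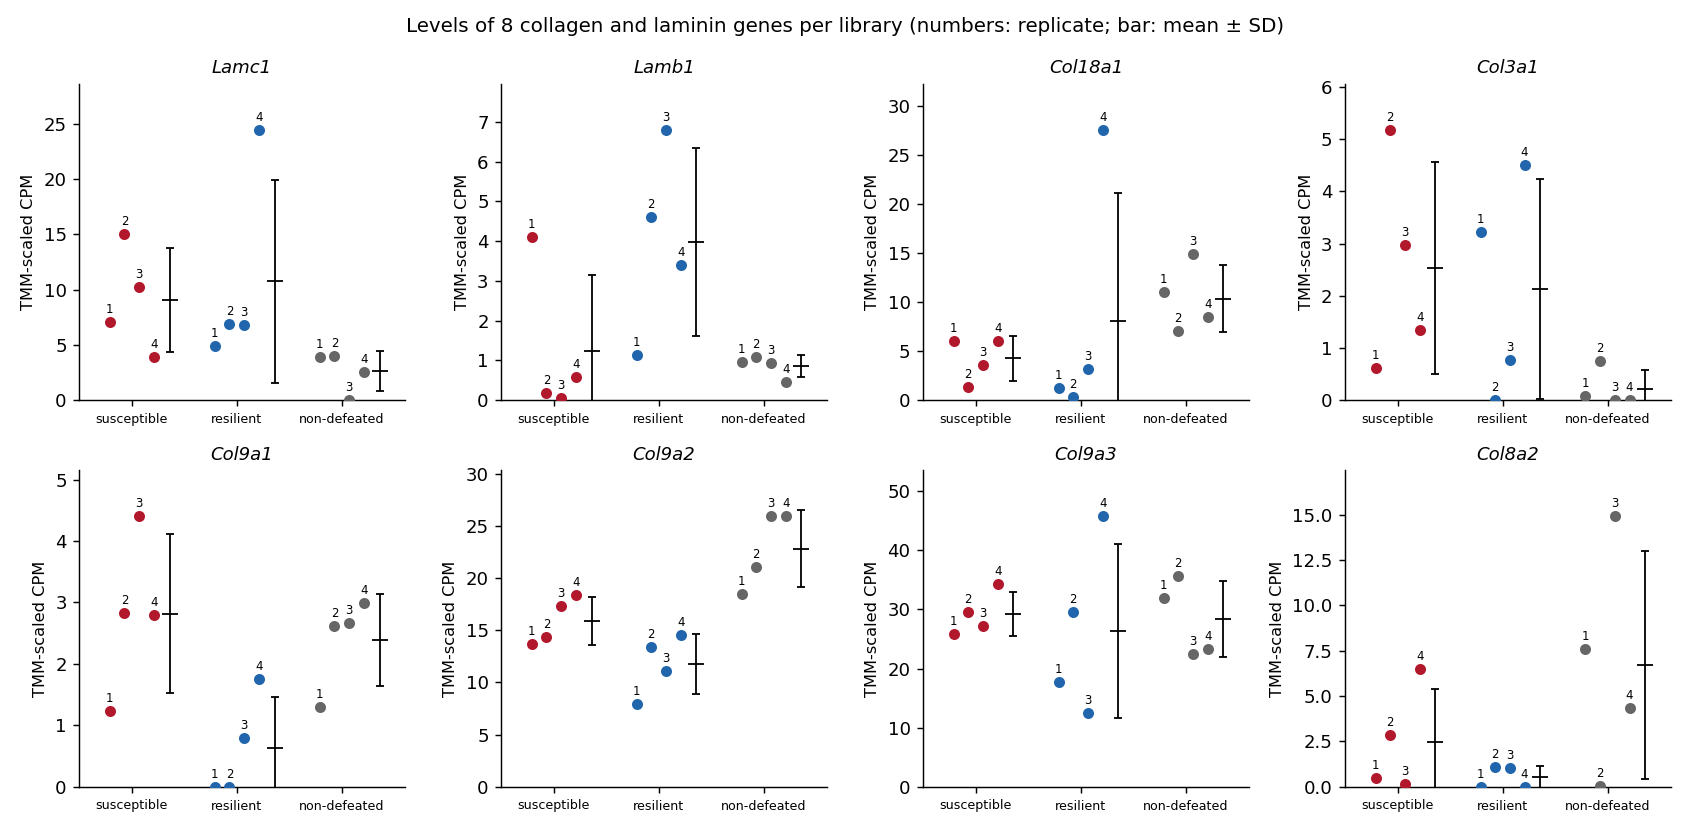
TMM-scaled CPM (vertical axes, linear, from 0) of Lamc1, Lamb1, Col18a1, Col3a1, Col9a1, Col9a2, Col9a3 and Col8a2 in susceptible, resilient and non-defeated libraries. Points are libraries numbered by replicate, and bars are mean ± SD, n = 4, cut at the axis where they would pass 0; every Col9a2 value in resilient libraries (7.97 to 14.5 CPM) lies below every non-defeated value (18.4 to 25.9 CPM).

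The beta chains differed in level, at 0.0863 ± 0.028 CPM per kb for Lamb1 and 2.10 ± 1.12 CPM per kb for Lamb2 in non-defeated libraries (SD, n = 4). Lamb1, the beta chain of widespread laminins, had 4.10, 0.172, 0.054 and 0.569 CPM in susceptible replicates 1 to 4, 1.14, 4.60, 6.80 and 3.39 CPM in resilient replicates 1 to 4, and 0.951, 1.09, 0.922 and 0.456 CPM in non-defeated replicates 1 to 4. Resilient libraries lay above all non-defeated ones, the closest values being 1.14 against 1.09 CPM, and susceptible replicate 1 was high among low ones. The log2 fold change was 1.29 ± 0.51 (SE, limma adjusted p = 0.594) in resilient against non-defeated mice and 1.30 ± 0.56 without resilient replicate 4; in susceptible against resilient mice it was -1.35 ± 0.51 (adjusted p = 1.0). Lamb2, the beta chain of vascular and synaptic laminins, averaged 14.6 ± 9.68 CPM in susceptible, 19.4 ± 11.02 in resilient and 12.8 ± 6.80 in non-defeated libraries (SD, n = 4). Susceptible replicate 4 had only 0.466 CPM of Lamb2, against 16.8 to 22.0 CPM in the other 3 susceptible libraries.

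The alpha chains, which carry the main receptor-binding domains, were scarce. Lama2, the alpha chain of muscle and of glial and vascular basement membranes, had 2.33 ± 1.09 CPM in susceptible, 6.69 ± 4.84 in resilient and 6.54 ± 3.67 in non-defeated libraries (SD, n = 4). Its log2 fold change was -1.12 ± 0.58 in susceptible against non-defeated and -0.94 ± 0.58 in susceptible against resilient mice (SE, limma adjusted p = 0.998 and 1.0). The second value was -0.56 ± 0.59 without resilient replicate 4 and -1.56 ± 0.47 without resilient replicate 1. Lama1, the chain of early and pial basement membranes, had 3.25 CPM in susceptible replicate 1 and 0 to 0.026 CPM in the other 3, against 0 to 6.31 CPM in resilient and 1.29 to 3.40 CPM in non-defeated libraries. The epithelial chains Lama3 and Lamb3 ran from 0 to 3.65 and 0 to 2.31 CPM, with no read of Lama3 in 7 libraries. The vascular chains Lama4 and Lama5 were highest in resilient replicate 4, at 6.87 and 11.3 CPM, and averaged 2.07 ± 2.45 and 3.35 ± 4.25 CPM in susceptible, 2.70 ± 3.34 and 3.26 ± 5.41 in resilient and 1.90 ± 1.25 and 1.07 ± 2.0 in non-defeated libraries. Without that library the resilient means were 1.32 ± 2.28 and 0.593 ± 1.03 CPM (SD, n = 3).

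Of the type IV collagens, Col4a1 and Col4a2, the chains of nearly all basement membranes, had 1.72 ± 0.62 and 2.03 ± 2.02 CPM per kb in non-defeated libraries, and Col4a3 to Col4a5 at most 0.266 ± 0.53 (SD, n = 4). Col4a1 stood at 2.61 to 20.2 CPM in susceptible, 2.54 to 59.2 in resilient and 6.97 to 18.3 CPM in non-defeated libraries. Without resilient replicate 4 the resilient mean of Col4a1 was 6.07 ± 4.22 CPM (n = 3), against 19.4 ± 26.8 with it, and Col4a2 gave 2.49 ± 3.22 against 22.0 ± 39.1. Col4a3, a chain known from kidney, lung and eye, ran from 0 to 3.53 CPM with no read in 3 libraries, and its log2 fold change was 0.73 ± 0.50 in resilient against non-defeated mice (SE, limma adjusted p = 0.872) and 0.38 ± 0.50 without resilient replicate 4. Col4a4 and Col4a5 had no read in 6 and 7 libraries.

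Chains that assemble together were compared over the 12 libraries, with 5 pairs computed and Benjamini-Hochberg adjustment over them. Col4a1 and Col4a2 had r = 0.693 (permutation test, 2-sided, p = 0.0115, adjusted p = 0.0287) and rho = 0.643 (p = 0.0285, adjusted p = 0.0712). Without resilient replicates 1 and 4, farthest from the median, r was 0.466, and without resilient replicate 4 alone 0.533 (permutation adjusted p = 0.230). The size of r thus depends in part on those libraries. Leaving out extreme libraries also narrows the range, which by itself tends to lower r. Deviations from the group means gave 0.745. The type VI chains Col6a1 and Col6a2 had r = 0.778 (permutation p = 0.00278, adjusted p = 0.0139) and rho = 0.683 (p = 0.0177, adjusted p = 0.0712), and r = 0.784 without resilient replicate 4 and 0.578 without susceptible replicate 4 and non-defeated replicate 3. Both are scarce, with no read of Col6a2 in 7 libraries.
The other pairs were weak. Col1a1 and Col1a2 gave r = 0.120 (permutation adjusted p = 0.709) and rho = 0.189 (adjusted p = 0.774), Col5a1 and Col5a2 r = -0.132 (0.709) and rho = -0.0444 (0.886), and Lamb1 and Lamc1 r = 0.205 (0.709) and rho = 0.161 (0.774). Without the 2 farthest libraries r was -0.374, 0.152 and 0.189.

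Among the fibrillar chains, type I collagen was present in every library and type III was not. Col1a1 had 5.62 ± 3.78 CPM in susceptible, 8.16 ± 5.88 in resilient (5.26 ± 1.18 without replicate 4, n = 3) and 5.03 ± 2.69 in non-defeated libraries (SD, n = 4). Col1a2 had 4.69 ± 2.90 CPM in susceptible, 8.01 ± 6.22 in resilient (4.95 ± 1.29 without replicate 4) and 8.72 ± 2.33 in non-defeated libraries, and its log2 fold change was -0.98 ± 0.54 (SE, limma adjusted p = 0.998) in susceptible against non-defeated mice. Susceptible replicate 4 had 0.544 CPM of Col1a2, against 4.90 to 6.96 CPM in the other 3, and without it the value was -0.44 ± 0.46. Col3a1, the partner of type I in vessel walls and meninges, had 0.618, 5.19, 2.98 and 1.35 CPM in susceptible replicates 1 to 4, 3.23, 0, 0.772 and 4.51 CPM in resilient replicates 1 to 4, and 0.087, 0.746, 0 and 0 CPM in non-defeated replicates 1 to 4. It was thus near 0 in non-defeated libraries, and susceptible replicate 1 and resilient replicate 2 lay within their range. Its log2 fold change was 1.41 ± 0.54 (SE, limma adjusted p = 0.998) in susceptible and 1.11 ± 0.54 (0.73 ± 0.53 without resilient replicate 4, adjusted p = 0.721 with it) in resilient against non-defeated mice.

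Of the minor fibrillar chains, Col5a2 had no read in 8 libraries, Col5a1 in 6, Col27a1 in 3 and Col5a3 in 1. Col5a2, a type V chain whose gene lies 24614 bases from Col3a1, had reads in susceptible replicates 1 and 3 (2.77 and 6.95 CPM) and resilient replicates 2 and 4 (1.68 and 2.71 CPM), and no read in any non-defeated library. Against a floor of 3 reads pooled over the non-defeated group, it was at least 143-fold higher in susceptible and at least 59.6-fold higher in resilient libraries, each resting on 2 of 4 libraries. The floor covers counting error only, and the other defeated libraries had no read either. Without resilient replicate 4 the resilient mean was 0.56 ± 0.97 CPM, against 1.1 ± 1.3 with it (SD), so that the second bound would be lower. Col5a2 passed limma-trend in neither comparison. Its fitted log2 fold changes, 1.23 in susceptible and 0.83 in resilient against non-defeated mice, already lay above the fibrillar medians. Setting Col5a2 at these bounds could therefore not move those medians. Col6a4, a type VI chain that failed the filter, likewise had no read in non-defeated libraries and 0 to 1.24 CPM in susceptible and 0 to 1.89 CPM in resilient ones. Col5a1 had no read in resilient replicates 1 to 3 and 1.07 CPM in replicate 4, against 0 to 3.62 CPM in susceptible and 0 to 4.58 CPM in non-defeated libraries. Col5a3 ranged from 0.322 to 5.96 CPM in susceptible, 0 to 10.5 CPM in resilient and 0.025 to 18.0 CPM in non-defeated libraries.

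Type IX collagen binds the surface of type II fibrils in cartilage. Its chains Col9a2 and Col9a3 had the highest levels per length in non-defeated libraries, at 7.38 ± 1.20 and 7.35 ± 1.68 CPM per kb, while Col9a1 had 0.472 ± 0.148 CPM per kb (SD, n = 4). Col9a2 (chr4:121039385-121055322, plus strand) had 13.6, 14.3, 17.4 and 18.4 CPM in susceptible replicates 1 to 4, 7.97, 13.4, 11.1 and 14.5 CPM in resilient replicates 1 to 4, and 18.4, 21.1, 25.9 and 25.9 CPM in non-defeated replicates 1 to 4. All 4 resilient and all 4 susceptible libraries lay below all 4 non-defeated ones, the highest susceptible library by only 18.38 against 18.44 CPM, and resilient replicate 4 was the highest of its group. The log2 fold change was -0.92 ± 0.25 (SE, limma adjusted p = 0.497) in resilient against non-defeated and -0.49 ± 0.25 (adjusted p = 0.998) in susceptible against non-defeated mice, and 0.43 ± 0.25 (adjusted p = 1.0) in susceptible against resilient mice. DESeq2 gave -0.97 for resilient against non-defeated mice with an adjusted p of 0.0402, and over all alternatives the adjusted p ran from 0.0402 to 1.0. Without resilient replicate 4 it was -1.03 ± 0.27. In susceptible against resilient mice the value was 0.26 ± 0.25 without resilient replicate 1.

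The partner chain Col9a1 (chr1:24177610-24252684, plus strand) was low in the resilient group. It had 1.24, 2.84, 4.40 and 2.80 CPM in susceptible replicates 1 to 4, no read in resilient replicates 1 and 2 and 0.795 and 1.75 CPM in replicates 3 and 4, and 1.30, 2.61, 2.66 and 2.99 CPM in non-defeated replicates 1 to 4. A count of 0 allows up to 0.0661 and 0.0737 CPM in those 2 libraries (3 reads, counting error only, since PCR reads without molecular identifiers are not independent molecules). Resilient replicate 4 overlapped the lowest library of each other group, and replicates 1 to 3 lay below all of them. The log2 fold change was -1.15 ± 0.41 (SE, limma adjusted p = 0.572) in resilient against non-defeated and 1.29 ± 0.41 (adjusted p = 1.0) in susceptible against resilient mice, or -1.44 ± 0.41 and 1.58 ± 0.41 without resilient replicate 4. The remaining chain, Col9a3, averaged 29.3 ± 3.73 CPM in susceptible, 26.3 ± 14.8 in resilient (19.9 ± 8.77 without replicate 4, n = 3) and 28.3 ± 6.45 in non-defeated libraries, with wide overlap (SD, n = 4).

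Of the other fibril-associated chains, Col16a1, found near fibrils in skin and cartilage, had 26.5 to 59.8 CPM in susceptible libraries, 0.298, 13.95, 7.02 and 129.1 CPM in resilient replicates 1 to 4, and 5.05 to 77.4 CPM in non-defeated libraries. Resilient replicates 1 to 3 lay below every susceptible library and replicate 4 above all, so that the log2 fold change of susceptible against resilient mice was 1.64 ± 1.07 with it (SE, limma adjusted p = 1.0) and 2.78 ± 0.86 without it (adjusted p = 0.512). It was 0.56 ± 0.92 without resilient replicate 1. Col19a1 had 24.2 CPM in resilient replicate 4 and 0 to 10.3 CPM elsewhere. Col12a1 ran from 0.092 to 8.72 CPM, Col20a1 from 0 to 3.53 CPM and Col22a1 from 0 to 6.81 CPM.

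Of the transmembrane collagens, Col25a1 had 3.05 ± 1.03 CPM per kb in non-defeated libraries, against 0.284 ± 0.34 for Col13a1 and 0.080 ± 0.097 for Col23a1 (SD, n = 4). This collagen of neurons is known as a component of amyloid plaques and for motor innervation of muscle. It averaged 24.3 ± 4.91 CPM in susceptible, 26.9 ± 12.7 in resilient (21.3 ± 7.54 without replicate 4, n = 3) and 39.5 ± 13.3 in non-defeated libraries (SD, n = 4). Its log2 fold change was -0.64 ± 0.34 in susceptible against non-defeated mice (SE, limma adjusted p = 0.998).

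The multiplexin Col18a1, the source of the angiogenesis inhibitor endostatin, had its lowest values in defeated mice. It had 6.07, 1.32, 3.60 and 6.00 CPM in susceptible replicates 1 to 4, 1.24, 0.292, 3.20 and 27.6 CPM in resilient replicates 1 to 4, and 11.02, 7.01, 14.8 and 8.47 CPM in non-defeated replicates 1 to 4. All susceptible libraries and resilient replicates 1 to 3 lay below all non-defeated ones, and resilient replicate 4 lay above. The log2 fold change in resilient against non-defeated mice was -1.35 ± 0.74 (SE, limma adjusted p = 0.785) and -2.25 ± 0.51 without that library (adjusted p = 0.109, the lowest over the alternatives). Without resilient replicate 2 it was -0.76 ± 0.73.

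Network and anchoring collagens were irregular. Col8a2, a short network chain of endothelial and corneal membranes, had 0.134 to 6.47 CPM in susceptible, 0 to 1.07 in resilient and 0.025 to 14.9 CPM in non-defeated libraries, with a log2 fold change of -1.87 ± 0.76 in resilient against non-defeated mice (SE, limma adjusted p = 0.616). Non-defeated replicate 2, at 0.025 CPM, lay inside the resilient range. Col7a1, which anchors epithelial basement membranes, had 2.15 to 3.82 CPM in susceptible, 0 to 8.43 in resilient and 0 to 4.56 CPM in non-defeated libraries. Type VI chains, which form microfibrils between cells and basement membranes, had no read in some libraries and several CPM in others. Col6a1 ran from 0 to 4.96 CPM and Col6a3 from 0 to 3.33 CPM, and Col6a6 had no read in 8 libraries and at most 4.87 CPM.

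The genes that fold, modify and cross-link collagen were measured beside the chains. Of 28 collagen maturation genes 24 were tested and 0 were called in any comparison by limma-trend. In susceptible against non-defeated, resilient against non-defeated and susceptible against resilient mice, 2, 3 and 2 had an unadjusted limma p under 0.05. Of all genes 3.54%, 7.14% and 3.51% did. The median log2 fold changes of the list were 0.07, 0.18 and -0.20, the last of these -0.11 without resilient replicate 4. P3h1, a prolyl 3-hydroxylase of collagen, gave 1.54 ± 0.50 in susceptible and 1.23 ± 0.50 in resilient against non-defeated mice (SE, limma adjusted p = 0.998 and 0.615). Colgalt2, which attaches galactose to collagen hydroxylysine, gave 1.80 ± 0.58 in resilient against non-defeated and -1.34 ± 0.58 in susceptible against resilient mice (limma adjusted p = 0.564 and 1.0). Bmp1, the protease that removes procollagen C-propeptides, gave 1.04 ± 0.43 in resilient against non-defeated mice (limma adjusted p = 0.616). Adamts3, an N-propeptidase, gave -1.5 ± 0.61 in susceptible against non-defeated mice (limma adjusted p = 0.998), with no read in susceptible replicates 1 and 2.

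Of 16 other basement membrane genes 14 were tested and 0 were called, with medians of 0.32, 0.13 and 0.15 in the same order of comparisons. The median in resilient against non-defeated mice was -0.09 without resilient replicate 4. Fbln2, a fibulin of vessel and basement membranes, gave 1.62 ± 0.61 in resilient against non-defeated and -1.39 ± 0.61 in susceptible against resilient mice (SE, limma adjusted p = 0.584 and 1.0). Nid2, which links laminin to type IV collagen, gave 1.21 ± 0.56 in susceptible against resilient mice (limma adjusted p = 1.0). Fbln2 had no read in susceptible replicate 2 and non-defeated replicates 2 and 3. Nid2 had none in resilient replicates 2 and 3 and non-defeated replicate 4. At an unadjusted p under 0.05 this list held 0, 1 and 3 genes, where 3.54%, 7.14% and 3.51% of all genes were. Of 17 receptor genes 16 were tested, 0 were called and 0 had an unadjusted p under 0.05 in any comparison, with medians of 0.14, 0.16 and 0.11. Leaving out resilient replicate 4 gave medians of -0.07 in resilient against non-defeated and 0.24 in susceptible against resilient mice. Ddr2, a receptor for fibrillar collagen, gave 1.26 ± 0.63 in susceptible and 1.21 ± 0.63 in resilient against non-defeated mice (limma adjusted p = 0.998 and 0.759), the second of these 0.61 without resilient replicate 4. Ddr2 had no read in any non-defeated library, so these fitted values are no bounds.

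Markers of blood and neighbouring tissue were also compared between the groups, and limma-trend called 0 of them in any comparison. The 5 blood cell markers, hemoglobins and Alas2, were all positive in susceptible and in resilient against non-defeated mice, with median log2 fold changes of 1.80 and 1.38. Each had an unadjusted p under 0.05, where 3.54% and 7.14% of all genes did, though 0 were called. The blood marker sums were 870.8 to 5680 CPM in susceptible, 1030 to 2071 in resilient and 263.0 to 825.2 CPM in non-defeated libraries, without overlap of the defeated with the non-defeated libraries. Medial habenula markers had a median of -0.98 in resilient against non-defeated mice, 3 of 6 at an unadjusted p under 0.05 (7.14% of all genes) and 0 called. In susceptible against non-defeated mice their median was -0.17, with 0 of 6 at an unadjusted p under 0.05. Choroid plexus and ependymal markers had 0 genes at an unadjusted p under 0.05 in any comparison. The median log2 fold changes of endothelial markers were 0.27 in susceptible and 0.42 in resilient against non-defeated mice, and -0.32 in the second without resilient replicate 4. Their part in the values above was not tested.

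In the authors' deposited table, which tests all 3 groups at once by a likelihood ratio, 0 of the 50 genes had an FDR under 0.05, where 0.293% of all genes did. There, 5 of 49 had a p under 0.05 in the authors' deposited table, where 4.89% of all genes did. They were Col5a2 (p = 0.00329, FDR = 0.308), Col9a2 (p = 0.0221), Col6a4 (p = 0.0324), Lamc1 (p = 0.0357) and Col8a2 (p = 0.0471) of the authors' deposited table. Its log ratios of resilient over non-defeated libraries were -0.96 for Col9a2 and 2.04 for Lamc1. Their log base is not stated there, but edgeR's log2 fold changes were close to them, at -0.957 and 2.037.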

How the data were processed

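RNA-seq of 12 lateral habenula libraries, 3 groups of 4, was read from the table the authors deposited. Per the submitters' processing notes the reads were aligned to GRCm38 (mm10) and counted with featureCounts, and edgeR was used; which aligner and which versions were used, and whether strand was used, is not given there. The 12 expression columns the authors deposited are headed as read counts but hold CPM plus a small constant. Whole reads were recovered from them, with 100% of values within 0.001 of a whole read. The authors' deposited table also holds log2 ratios between groups, with the base not stated; for resilient over non-defeated libraries they differ from edgeR's log2 fold changes of these genes by a median of 0.00793. The authors also deposited a likelihood ratio score per gene, with its p-value and FDR. One row without a gene was left out, and 0 expression columns could not be tied to a sample. Of 17416 gene IDs 17402 matched GENCODE M21.

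Levels were TMM-scaled. The main test was limma-trend (limma 3.58.1, robust) on log2(CPM + 1) of all 12 libraries, after edgeR's (4.0.16) low-count filter with a minimum count of 10, with Benjamini-Hochberg adjustment over 17111 genes and a threshold of 0.05. It was also run on simulated counts drawn without an outlying library, so that run does not cover a library such as resilient replicate 4. Alternatives were edgeR's quasi-likelihood test and DESeq2 1.42.0 on the recovered reads, voom, other pseudocounts, filters and scalings, the title letter, replicate blocks and each library left out (R 4.3.3, Python 3.11.15). Coding stretches and glycine runs came from GENCODE M21 coding sequences and promoters from RefSeq.

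Named were, per comparison, the 4 genes of smallest p in each class averaging at least 1 CPM, the 10 of highest level per length, and a fixed set of common chains; pathway lists name up to 3 genes of smallest p per comparison. One gene of the 50 is not reported here on its own. It stays in sums, class medians and counts over 49 or 50 genes, and is left out of the counts over 48, of those at p under 0.05 in the authors' table and of the figures of single genes. Genes outside that rule are given by levels only and were picked after their values were seen. The genes and lists were chosen with earlier results of these data known. Exons of 15 of the 50 genes share bases with another gene, at most 6.27% of their length.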

Additional observations from a re-analysis of the deposited data

Results flagged for a closer look

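In 11 of 102 groups of 4 libraries 1 library stood apart from the other 3 by Dixon's criterion on log2(CPM + 1). Chance flags about 5% of groups, or 5.1 of 102, where values are normally spread. Many of these genes lie near 0, and a group with no read in 3 libraries is flagged at any level of the remaining one. The 11 can therefore not be set against that share. In 3 of the 11 groups the library was resilient replicate 4. It had 3.58 CPM of Col27a1 (others of its group 0 to 0.275), and 1.07 CPM of Col5a1 and 4.87 CPM of Col6a6 (others 0 for both). Its vascular marker sums were also above those of all other libraries, and their part in these values was not tested.

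Susceptible replicate 4 had 3.75 CPM of Col6a1 (others 0 to 0.275) and 2.33 CPM of Col6a2 (others 0 to 0.215), and the lowest Lamb2, 0.466 CPM (others 16.8 to 22.0). Susceptible replicate 1 had 3.25 CPM of Lama1 (others 0 to 0.0259), and susceptible replicate 2 had 0.458 CPM of Col6a6 (others 0). Among non-defeated libraries, replicate 1 had 4.06 CPM of Lama5 (others 0 to 0.205), replicate 2 had 0.746 CPM of Col3a1 (others 0 to 0.0865), and replicate 3 had 5.62 CPM of Col6a2 (others 0).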

How the results depend on the processing

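Of 33 named fold changes, 32 kept their sign under all 25 alternatives run, and Col3a1 in resilient against non-defeated mice was -0.31 under voom. These fold changes were named for their small p in the same data, which favours a stable sign. Some alternatives, such as the replicate block, leave every fold change as it was. The count is therefore no test of how firm the signs are. DESeq2 called 1 gene in resilient against non-defeated mice, Col9a2 (log2 fold change -0.97, adjusted p = 0.0402), among 91 of 17111 genes it called there, where limma-trend, edgeR and voom called 0 of the 49. The basement membrane median in susceptible against non-defeated mice was -0.58 under voom. For Col4a1 with Col4a2, r was 0.638 (permutation adjusted p = 0.0619) with a pseudocount of 0.25 and 0.533 (permutation adjusted p = 0.230) without resilient replicate 4. For Col1a1 with Col1a2, r was -0.26 without resilient replicate 4, and for Lamb1 with Lamc1 it was -0.0697 on deviations from group means. The cause of these shifts was not tested. Leaving out single libraries moved the fibrillar median between -0.61 and 0.77 in resilient against non-defeated mice. Without resilient replicate 4 and non-defeated replicate 1, an alternative chosen after seeing the data, the fibrillar medians were 0.77, 0.04 and 0.85 in susceptible against non-defeated, resilient against non-defeated and susceptible against resilient mice. Same-numbered libraries did not deviate together (r -0.194 to 0.127, over 0.1 in 3 of 12 pairs); a fit with the replicate number as a block called 0 genes in each comparison, with a fibrillar median of 0.23 in susceptible against non-defeated mice. Scarce genes rest on few reads, and there the pseudocount limits what can be detected.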
